A study of Homo sapiens with 12 samples.

Results

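A set of 10 genes that restrain the RAS and ERK pathway was followed in 2 human retinoblastoma cell lines exposed to THZ1. The genes were chosen by symbol and form 3 families: the dual-specificity phosphatases DUSP1, DUSP2, DUSP4, DUSP5 and DUSP6, the Sprouty genes SPRY1, SPRY2 and SPRY4, and the Sprouty-related genes SPRED1 and SPRED2. All 10 were found among the 19974 Ensembl genes of a count table of 27505 features, and all 10 passed the filter on low counts. THZ1 is a covalent drug directed at the transcription kinase CDK7. The 4 groups were Y79 cells in 50 nM THZ1, Y79 cells in 0.1% DMSO, WERI-Rb-1 cells (WERI) in 50 nM THZ1, and WERI cells in 0.1% DMSO. Exposure lasted 12 h, each group had 3 libraries, and all libraries carried the genotype label WT. Both lines are long-established cultures, each grown from a single tumour, so a difference between them is a difference between those lines. The samples are called biological by the submitters, and whether they were separate cultures is otherwise not given, so p-values measure the spread between these samples.

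Growth factor receptors switch on RAS, which drives the kinases RAF, MEK and ERK in turn. Active ERK raises transcription of several of its own inhibitors, and the mRNAs of these feedback genes are widely used as a readout of ERK output. The DUSP phosphatases remove phosphate from ERK and related MAP kinases, Sprouty proteins act between the receptor and RAS, and SPRED proteins bring neurofibromin to RAS. ERK activity itself was not measured here.

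Levels are given as TMM-scaled counts-per-million (CPM). The cell type markers in this paragraph are the exception, given as CPM of total counts without TMM factors. Total counts ran from 29677575 to 37433574 per library. The mRNA of CDK7 was lower after THZ1 by 1.83 ± 0.122 (SE) in Y79 and by 1.89 ± 0.126 in WERI on the log2 scale. Mitochondrially encoded mRNAs took 8.44% to 11.18% of counts in THZ1 libraries and 3.74% to 4.46% in DMSO libraries. Y79 THZ1 replicate 2 stood apart: its chi-square per degree of freedom against the other 2 libraries of its group was 71.9 and 73.0, against 7.78 to 13.9 for all other pairs. Ribosomal protein genes held 14.75% of its counts, and 10.91% and 10.58% in the other 2. All 10 photoreceptor markers averaged over 1 CPM, and their summed CPM was 556 to 578 in Y79 THZ1, 1470 to 1480 in Y79 DMSO, 1160 to 1170 in WERI THZ1 and 2840 to 2930 in WERI DMSO. Of 8 glial and pigment epithelium markers 4 averaged over 1 CPM, with TYR at 0 in every library, and their summed CPM was 10.1 to 36.6 in Y79 THZ1, 7.19 to 13.3 in Y79 DMSO, 115 to 132 in WERI THZ1 and 109 to 123 in WERI DMSO. Of 10 stromal and blood markers 2 did so, with summed CPM of 5.02 to 6.53 in Y79 THZ1, 3.38 to 5.08 in Y79 DMSO, 52.3 to 55.0 in WERI THZ1 and 34.1 to 39.7 in WERI DMSO. In WERI, SLC1A3 (93.1 to 114 CPM) made up most of the glial sum and COL1A1 (29.2 to 49.9 CPM) most of the stromal sum. Unlike the photoreceptor sum, the markers RCVRN and PDE6H were higher in THZ1 than in DMSO libraries of both lines. The part of these shifts in the results below was not tested. Fold changes are THZ1 over DMSO, and adjusted p comes from the edgeR quasi-likelihood test over all tested features. Genes are said to be called, to rise or to fall where that value is under 0.05.

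THZ1 lowered 4 of the 10 genes in both lines: the phosphatases DUSP4 and DUSP5 and both SPRED genes. Of all tested Ensembl genes 30.9% fell in both lines, so that count is near the background. DUSP5 had the deepest fall of the 10 in each line. DUSP2 fell in WERI, where it was abundant. DUSP1 fell in Y79 and rose in WERI, and no Sprouty gene passed the test in either line.

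**Figure D1:**
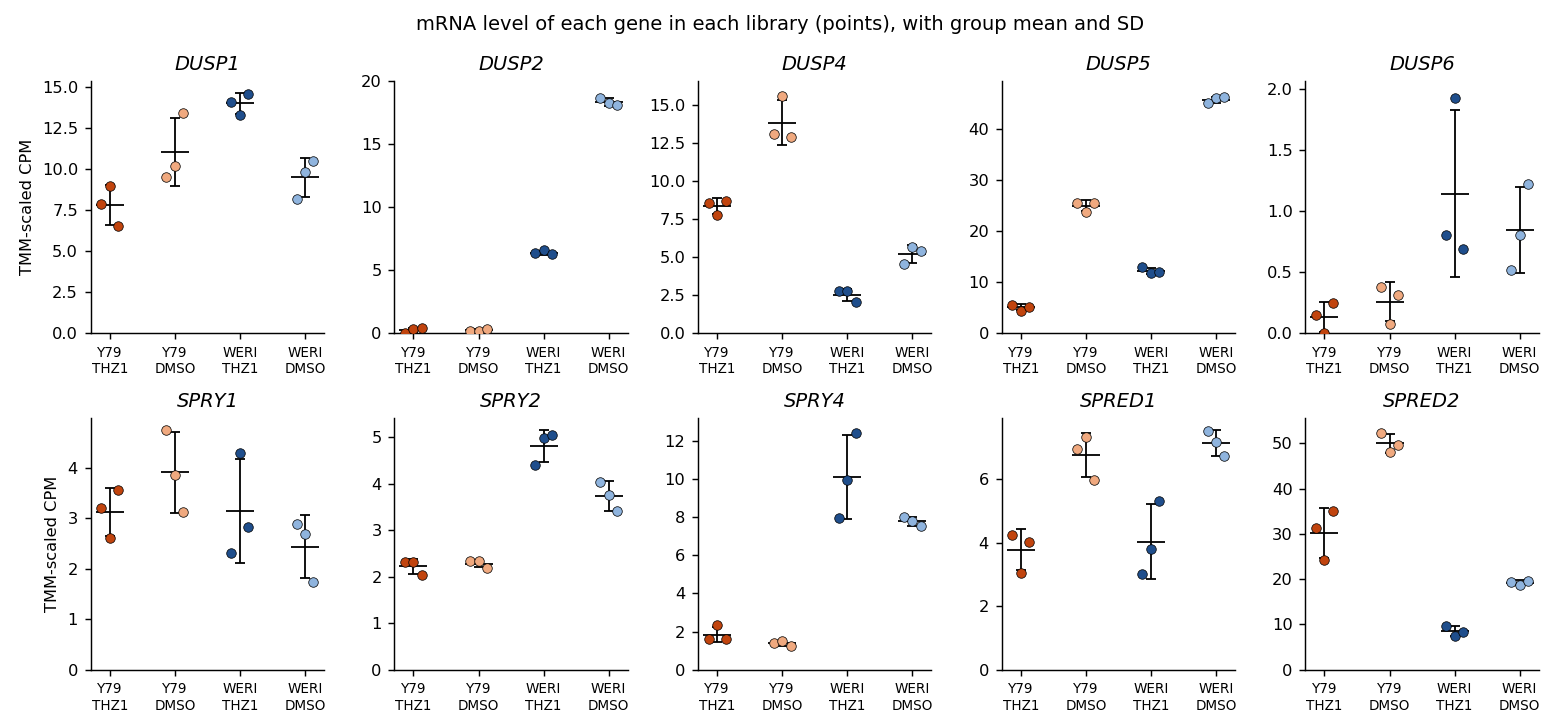
TMM-scaled CPM of each of the 10 genes in the 12 libraries (points), with group mean and SD (bars), on a linear axis from 0 in each panel. DUSP5 and SPRED2 libraries in THZ1 sit below the DMSO libraries of the same line, while DUSP1 libraries in THZ1 lie below DMSO in Y79 (6.53 to 8.96 against 9.51 to 13.4 CPM) and above it in WERI (13.3 to 14.6 against 8.16 to 10.5 CPM).

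DUSP5 encodes a nuclear phosphatase that acts on ERK and not on the other MAP kinases. It measured 5.55, 4.36 and 5.15 CPM in Y79 THZ1 libraries, against 25.5, 23.7 and 25.5 CPM in Y79 DMSO libraries. In WERI it measured 12.9, 11.8 and 12.0 CPM after THZ1, against 45.0, 45.9 and 46.1 CPM in DMSO. All THZ1 libraries were below all DMSO libraries of their line. The log2 fold change was -2.30 ± 0.101 in Y79, a 4.94-fold fall (adjusted p = 3.21e-10), and -1.90 ± 0.0946 in WERI, a 3.73-fold fall (adjusted p = 1.7e-09). Ranked from the most negative value, DUSP5 lay at percentile 4.02 of all tested Ensembl genes in Y79 and at 4.33 in WERI. The gene lies on chromosome 10 at 110497838 to 110511544, plus strand, in GRCh38. Its processed pseudogenes DUSP5P1 and DUSP5P2 are annotated in GENCODE but have no row in the table, and whether their reads reached DUSP5 is not stated in the sources used here. In a bulk sample, a loss of the cells that express a gene and less of its RNA per cell cannot be told apart.

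DUSP4, another nuclear phosphatase of ERK and its relatives, moved the same way by a smaller amount. Its level was 8.58, 7.80 and 8.73 CPM in Y79 THZ1 libraries, against 13.1, 15.6 and 12.9 CPM in Y79 DMSO libraries. WERI libraries had 2.76, 2.74 and 2.04 CPM after THZ1, against 4.53, 5.64 and 5.41 CPM in DMSO. The ranges did not overlap within either line, and Y79 THZ1 libraries still held more DUSP4 than WERI DMSO libraries. The fall was -0.72 ± 0.153 in Y79 (adjusted p = 0.000835) and -1.05 ± 0.163 in WERI (adjusted p = 6.87e-05) on the log2 scale.

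DUSP1 is an immediate early gene whose product acts on the stress kinases p38 and JNK as well as on ERK. It measured 7.86, 8.96 and 6.53 CPM in Y79 THZ1 libraries, against 9.51, 10.2 and 13.4 CPM in Y79 DMSO libraries. WERI libraries held 14.1, 13.3 and 14.6 CPM after THZ1, against 8.16, 9.80 and 10.5 CPM in DMSO. The groups did not overlap in either line, and the direction was opposite. The log2 fold change was -0.50 ± 0.161 in Y79 (adjusted p = 0.0141) and 0.56 ± 0.158 in WERI (adjusted p = 0.00729). The fall in Y79 lost its call without Y79 DMSO replicate 3 (-0.35, adjusted p = 0.0807) and without Y79 THZ1 replicate 3 (-0.40, adjusted p = 0.0588). The rise in WERI was 0.11 (adjusted p = 0.558) when libraries were scaled by total counts alone and -1.35 (adjusted p = 5.9e-07) when scaled by mitochondrial mRNAs, and in both cases it lay above the median of all tested genes, which was -0.56 and -2.01 under those scalings.

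DUSP2 encodes a nuclear phosphatase best known from activated lymphocytes. In WERI it measured 6.33, 6.57 and 6.25 CPM after THZ1, against 18.7, 18.3 and 18.1 CPM in DMSO. The libraries of each group lay close together and the groups were far apart, and the fall was -1.52 ± 0.313 on the log2 scale (adjusted p = 0.00077). In Y79 the gene was near the limit of detection, with 0, 6 and 9 counts in THZ1 libraries, against 6, 5 and 14 counts in DMSO libraries. These counts left the Y79 change unresolved, at 0.05 ± 0.638 (adjusted p = 0.969), and a count of 0 in a library allows for up to 3 counts.

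DUSP6, the cytoplasmic phosphatase of ERK that is the most used marker of the pathway's output, was the least abundant of the 10 per unit of length in all 4 groups. It had 4, 0 and 6 counts in Y79 THZ1 libraries, against 16, 3 and 13 counts in Y79 DMSO libraries. In WERI its level was 0.805, 1.93 and 0.690 CPM after THZ1, against 0.516, 0.803 and 1.22 CPM in DMSO. Groups overlapped in both lines. The log2 fold change was -0.91 ± 0.851 in Y79 (adjusted p = 0.376) and 0.43 ± 0.66 in WERI (adjusted p = 0.599), so no change was called. Counts were few in Y79. WERI libraries of the same group lay far apart, with 23, 57 and 20 counts in THZ1 and 22, 33 and 56 counts in DMSO. Over DUSP6 exons, 1875 bases (40.5%) are shared with the antisense gene AC024909.2, and the library kit did not keep the strand, so reads of the pair cannot be told apart.

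The upstream sequences of DUSP1 and DUSP2 are shown because DUSP1 had changes of opposite sign in the lines and DUSP2 had the widest gap in level between them. Each is the 250 bases before the gene start from RefSeq (GRCh38.p14), written 5′ to 3′ on the minus strand, from chr5:172771196-172771445 and chr2:96145441-96145690. Capitals mark a cAMP response element (TGACGTCA), an E-box (CACGTG) and a TATA box (TATAAA), searched on both strands.
DUSP1: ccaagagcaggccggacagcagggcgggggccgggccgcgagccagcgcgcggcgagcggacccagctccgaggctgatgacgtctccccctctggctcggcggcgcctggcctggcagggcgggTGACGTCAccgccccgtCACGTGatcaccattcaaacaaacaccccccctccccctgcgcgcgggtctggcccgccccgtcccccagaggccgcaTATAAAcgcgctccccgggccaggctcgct
DUSP2: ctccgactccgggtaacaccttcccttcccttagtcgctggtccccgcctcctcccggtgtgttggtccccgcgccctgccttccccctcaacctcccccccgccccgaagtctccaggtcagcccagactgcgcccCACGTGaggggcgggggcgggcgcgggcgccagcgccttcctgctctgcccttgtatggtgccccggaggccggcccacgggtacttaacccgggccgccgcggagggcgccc
In DUSP1 the cAMP response element begins 125 bases, the E-box 108 bases and the TATA box 30 bases before the start. DUSP2 holds an E-box 113 bases before it. No capitalised motifs overlap. Windows of 300 bases, reaching 50 bases past the start, were given for 8 of the 10 genes (12 windows); DUSP4 and DUSP5 were not among them. Of all 35116 such windows, 1.85% hold the cAMP response element, 7.26% the E-box and 11.5% the TATA box, and of the 12 windows here 1, 2 and 2 do. The GC box (GGGCGG, not capitalised) was in 8 of the 12 and in 45.0% of all windows. The AP-1 site (TGANTCA) was in 1 of the 12, one of SPRED2, and in 7.71% of all. The serum response element core known as the CArG box was in 0 of the 12 and in 1.29% of all. A match is a run of letters and not a measured site.

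The 3 Sprouty genes, whose products block signals from receptors to RAS, did not pass the edgeR test in either line. DESeq2 called SPRY2 (0.45, adjusted p = 0.0201) and SPRY4 (0.46, adjusted p = 0.0397) higher in WERI and no Sprouty gene in Y79. Some other edgeR fits also called rises in WERI. They were SPRY2 with RLE factors, both genes with Ensembl genes only, and SPRY4 when WERI was fitted alone. The fit with Ensembl genes only also called SPRY4 higher in Y79. In WERI both genes were negative with total counts (-0.08 and -0.07, not called) and with mitochondrial mRNAs (-1.53 and -1.52, called). SPRY1 measured 3.21, 2.62 and 3.57 CPM in Y79 THZ1 libraries, against 4.75, 3.86 and 3.13 CPM in Y79 DMSO libraries. In WERI it measured 2.31, 4.30 and 2.83 CPM after THZ1, against 2.89, 2.70 and 1.74 CPM in DMSO. Ranges overlapped in both lines, with log2 fold changes of -0.32 ± 0.279 (adjusted p = 0.34) in Y79 and 0.37 ± 0.28 (adjusted p = 0.278) in WERI.

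SPRY2, the family member that also binds the ubiquitin ligase CBL, lay close to its DMSO level in Y79. It measured 2.31, 2.32 and 2.04 CPM in Y79 THZ1 libraries, against 2.33, 2.33 and 2.19 CPM in Y79 DMSO libraries. In WERI it measured 4.41, 4.98 and 5.04 CPM after THZ1, against 4.04, 3.75 and 3.41 CPM in DMSO. Every WERI THZ1 library was above every WERI DMSO library, yet the log2 fold change of 0.37 ± 0.174 had an adjusted p of 0.0855. In Y79 the change was -0.04 ± 0.182 (adjusted p = 0.882).

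SPRY4 measured 1.59, 2.32 and 1.62 CPM in Y79 THZ1 libraries, against 1.38, 1.53 and 1.25 CPM in Y79 DMSO libraries. WERI libraries held 7.98, 9.96 and 12.4 CPM after THZ1, against 8.0, 7.81 and 7.52 CPM in DMSO. The Y79 groups were apart and the WERI groups overlapped through THZ1 replicate 1. The log2 fold change was 0.40 ± 0.217 in Y79 (adjusted p = 0.123) and 0.38 ± 0.189 in WERI (adjusted p = 0.1). Without WERI THZ1 replicate 1 the WERI value was 0.52 and passed (adjusted p = 0.0386).

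SPRED1, whose loss causes Legius syndrome, fell in both lines by nearly the same amount. It measured 4.26, 3.05 and 4.03 CPM in Y79 THZ1 libraries, against 6.96, 7.33 and 5.99 CPM in Y79 DMSO libraries. In WERI it measured 3.01, 3.79 and 5.31 CPM after THZ1, against 7.53, 7.18 and 6.72 CPM in DMSO. No THZ1 library reached the lowest DMSO library of its line. The log2 fold change was -0.83 ± 0.208 in Y79 (adjusted p = 0.00298) and -0.82 ± 0.206 in WERI (adjusted p = 0.00328).

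SPRED2, a close relative of SPRED1 with the same role at RAS, had the highest level per kb of exon of the 10 in Y79 THZ1. It measured 31.3, 24.2 and 35.1 CPM in Y79 THZ1 libraries, against 52.3, 48.0 and 49.6 CPM in Y79 DMSO libraries. In WERI it measured 9.66, 7.55 and 8.35 CPM after THZ1, against 19.4, 18.7 and 19.6 CPM in DMSO. The groups were fully apart in both lines. The log2 fold change was -0.73 ± 0.123 in Y79 (adjusted p = 0.000128) and -1.18 ± 0.129 in WERI (adjusted p = 2.45e-06). The gene lies on chromosome 2 at 65310851 to 65432637, minus strand, in GRCh38.

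**Figure D2:**
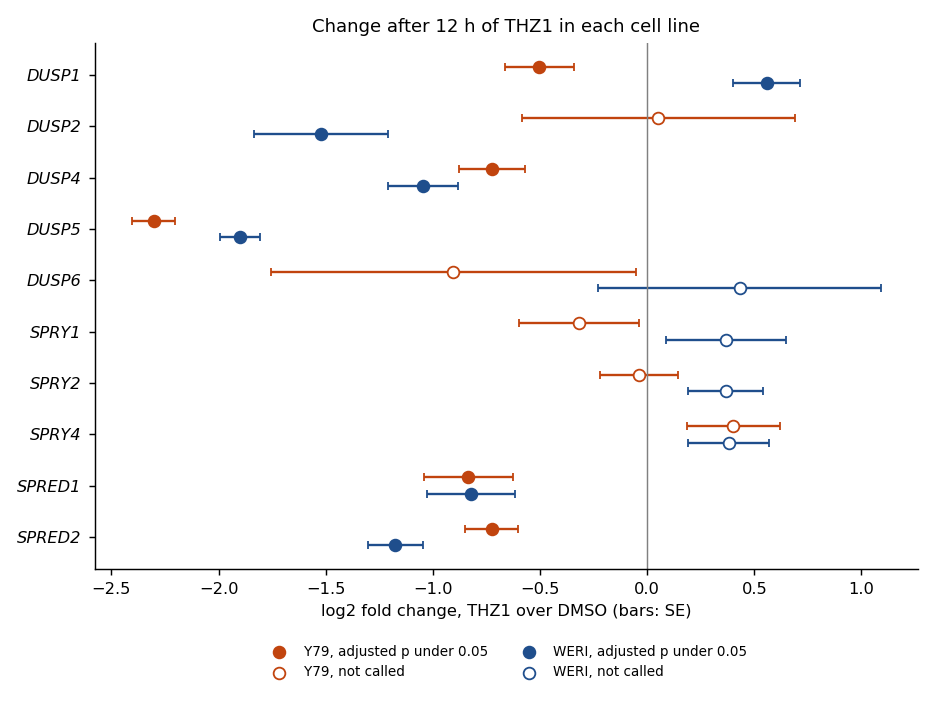
Log2 fold change of THZ1 over DMSO for each gene in Y79 and WERI, with SE bars; filled points passed an adjusted p of 0.05 and open points did not. DUSP5 lies farthest to the left in both lines (-2.30 in Y79, -1.90 in WERI), and DUSP1 is the gene with filled points on opposite sides of 0.

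Counted together, 5 of the 10 genes fell and 0 rose in Y79, where 38.5% of all tested Ensembl genes fell and 29.9% rose. The count of 0 rises by edgeR was also 0 at an unadjusted p under 0.05 and by DESeq2. With edgeR fitted to Ensembl genes only, 1 gene rose in Y79, SPRY4 (0.51, adjusted p = 0.048). In WERI 5 fell and 1 rose, where 37.2% of all fell and 27.7% rose. The 4 genes that fell in both lines compare with 30.9% of all tested genes that did so. The shares that fell are near the background, so the number of falls is not in itself a result about the feedback genes. Their median log2 fold change was -0.61 in Y79, beside -0.09 over all tested genes, and -0.23 in WERI, beside -0.11. The WERI median was -0.51 without WERI THZ1 replicate 2, and -0.12 without WERI THZ1 replicate 1. By family, the phosphatases fell in 3 of 5 cases in each line, Sprouty genes in 0 of 3, and SPRED genes in 2 of 2. The 2 SPRED genes span 104.9 and 121.8 kb of the genome, the phosphatases 2.3 to 17.6 kb and the Sprouty genes 5.0 to 16 kb, where the median tested gene spans 32.2 kb. A link between span and the falls was not tested. Without Y79 THZ1 replicate 2, the library that stood apart, the same numbers of genes were called in each line, with DUSP1 at -0.64, DUSP4 at -0.71, DUSP5 at -2.24, SPRED1 at -0.73 and SPRED2 at -0.62 in Y79.

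The response to THZ1 was then compared between the lines, as the Y79 change minus the WERI change. DUSP1 was the one gene of the 10 whose difference was called by edgeR, at -1.06 ± 0.225 (adjusted p = 0.00537). Over all tested Ensembl genes, 13.2% were called in that negative direction and 8.74% in the positive one, so 1 negative call of 10 is near the background. No gene of the 10 was called in the positive direction, where 1 (SPRED2) had an unadjusted p under 0.05 and DESeq2 called 1 (DUSP2). The DUSP1 difference stayed between -1.17 and -0.90 when each library was left out in turn, and its adjusted p was at most 0.0172. It was also called under all 8 other fits, with values from -1.18 to -0.86.

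The SPRED2 fall was shallower in Y79 by 0.45 ± 0.177, with an adjusted p of 0.0966. It passed without Y79 THZ1 replicate 2 (0.58, adjusted p = 0.00275), when the numbers of genes called over the whole table also grew, to 2161 positive and 3029 negative, against 1299 and 1965 with all libraries. The DUSP5 difference was -0.40 ± 0.135 (adjusted p = 0.0535), and without Y79 THZ1 replicate 1 it was -0.48 (adjusted p = 0.0272). The DUSP2 difference was 1.58 ± 0.733 (adjusted p = 0.161), and without the same library, which held 0 counts of it, it was 2.25 (adjusted p = 0.00537). For the others the differences were -1.34 ± 1.08 for DUSP6, -0.69 ± 0.396 for SPRY1, -0.41 ± 0.252 for SPRY2, 0.32 ± 0.222 for DUSP4, 0.02 ± 0.279 for SPRY4 and -0.01 ± 0.291 for SPRED1. Their adjusted p ran from 0.261 to 1. A p that misses the threshold does not show that the lines responded alike.

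The lines differed in the starting level of most of the genes. In DMSO, Y79 held more DUSP4, SPRED2 and SPRY1 than WERI and less DUSP2, DUSP5, SPRY2 and SPRY4. That is 3 of 10 higher and 4 of 10 lower, where 32.3% and 32.6% of all tested genes were higher and lower. These counts are near the background, so they are not in themselves a result about the feedback genes. The widest gap was DUSP2, at 0.143, 0.125 and 0.337 CPM in Y79 DMSO libraries, against 18.7, 18.3 and 18.1 CPM in WERI DMSO libraries, an 89.2-fold lower fitted level in Y79 (log2 -6.48 ± 0.432, adjusted p = 1.79e-08). SPRY4 was 5.6-fold lower in Y79 (log2 -2.48 ± 0.207, adjusted p = 1.61e-07). DUSP5 was 1.83-fold lower in Y79 (log2 -0.88 ± 0.0906, adjusted p = 1.48e-06), and SPRY2 was lower by -0.71 ± 0.176 (adjusted p = 0.00321). In the other direction, DUSP4 was 2.66-fold higher in Y79 (log2 1.41 ± 0.154, adjusted p = 2.48e-06) and SPRED2 2.6-fold higher (log2 1.38 ± 0.124, adjusted p = 3.44e-07).

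SPRY1 in DMSO was near the threshold, higher in Y79 by 0.68 ± 0.277 (adjusted p = 0.0464). That call was lost in 7 of the 12 fits that left out a library, with values from 0.49 to 0.76: WERI DMSO replicates 2 and 3, WERI THZ1 replicate 3, Y79 DMSO replicates 1 and 2, and Y79 THZ1 replicates 1 and 3. DUSP6 in DMSO fell just short, at -1.71 ± 0.707 (adjusted p = 0.0507), although every Y79 DMSO library was below every WERI DMSO library. It passed without WERI DMSO replicate 1 (-1.96), without Y79 THZ1 replicate 2 (-1.73) and without Y79 THZ1 replicate 3 (-1.73). It also passed in 6 of the 8 other fits, among them RLE factors (adjusted p = 0.0499) and DESeq2 (adjusted p = 0.0349). DUSP1 and SPRED1 were not called, at 0.21 ± 0.157 (adjusted p = 0.259) and -0.08 ± 0.2 (adjusted p = 0.754).

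In THZ1, 8 of the 10 genes were called between the lines, 2 higher and 6 lower in Y79, where 31.0% and 36.1% of all tested genes were so. Of the 14865 tested Ensembl genes only 4890 were not called, so the count of 8 is not in itself a result about the feedback genes. DUSP1, not called between the lines in DMSO, was lower in Y79 than in WERI by -0.85 ± 0.162 (adjusted p = 0.00041) after THZ1. DUSP6 was 8.23-fold lower in Y79 (log2 -3.04 ± 0.811, adjusted p = 0.00484), from the few counts given above. DUSP2 remained 29.9-fold lower in Y79 (log2 -4.90 ± 0.462, adjusted p = 5.65e-07) and SPRY4 5.51-fold lower (log2 -2.46 ± 0.211, adjusted p = 1.93e-07). DUSP5 was 2.43-fold lower in Y79 and SPRY2 was lower by -1.11 ± 0.182 on the log2 scale. DUSP4 was 3.33-fold higher and SPRED2 3.55-fold higher in Y79. SPRY1 and SPRED1 were not called, at -0.01 ± 0.283 (adjusted p = 0.99) and -0.09 ± 0.212 (adjusted p = 0.728). Without Y79 THZ1 replicate 2 there were again 2 higher and 6 lower, with DUSP1 at -0.98 and DUSP6 at -2.55.

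**Figure D3:**
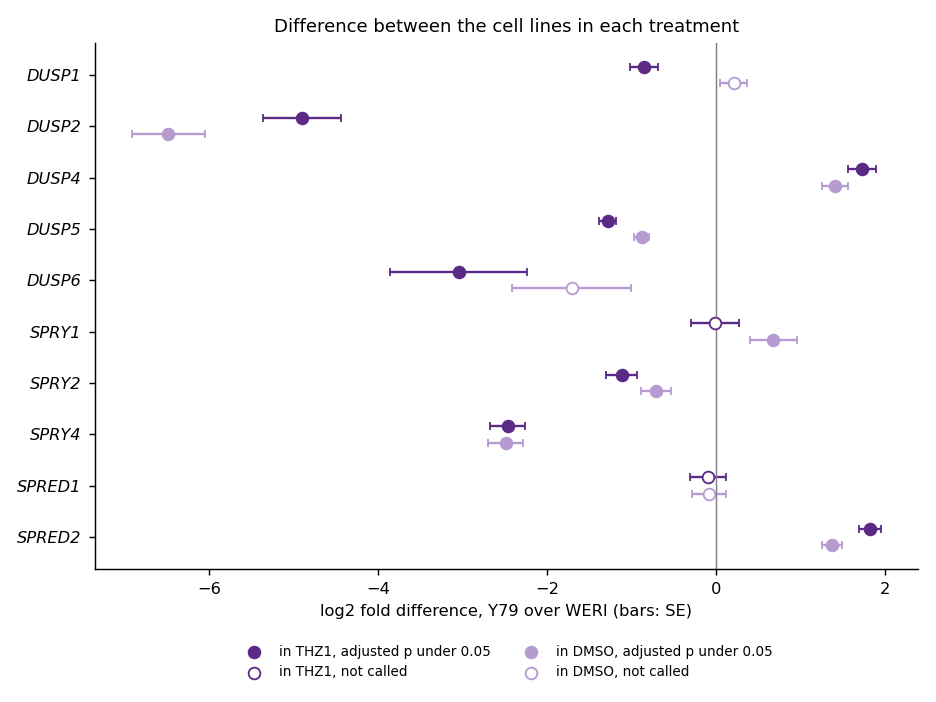
Log2 fold difference of Y79 over WERI for each gene in THZ1 and in DMSO, with SE bars; filled points passed an adjusted p of 0.05. DUSP2 lies farthest to the left in both treatments (-4.90 in THZ1, -6.48 in DMSO), DUSP4 and SPRED2 lie to the right in both, and DUSP1 is open in DMSO (0.21) and filled in THZ1 (-0.85).

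Levels of different genes were compared as CPM per kb of annotated exon. In Y79 THZ1 the order began with SPRED2 at 5.86 ± 1.08, DUSP1 at 3.85 ± 0.604 and DUSP5 at 1.92 ± 0.233 CPM per kb, whose libraries did not overlap. In Y79 DMSO it began with SPRED2 at 9.70 ± 0.421 and DUSP5 at 9.52 ± 0.4 CPM per kb, which overlapped, then DUSP1 at 5.46 ± 1.03. DUSP5 thus stood beside SPRED2 in Y79 DMSO and below DUSP1 in Y79 THZ1. In WERI THZ1 the leaders were DUSP1 at 6.93 ± 0.319, DUSP5 at 4.68 ± 0.23 and DUSP2 at 3.30 ± 0.0876 CPM per kb, and in WERI DMSO they were DUSP5 at 17.5 ± 0.212, DUSP2 at 9.50 ± 0.152 and DUSP1 at 4.71 ± 0.604 (SD, n = 3). In both lines DUSP1 stood below DUSP5 in DMSO and above it in THZ1. DUSP6 came last in every group, from 0.0283 ± 0.027 in Y79 THZ1 to 0.247 ± 0.148 in WERI THZ1, and its neighbour overlapped it in 3 of the 4 groups. The neighbours SPRY2 and SPRY4 overlapped in both WERI groups, and SPRY1 overlapped its next neighbour in both Y79 groups.

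The size of each change depends on the quantity the libraries are scaled to. Over all tested genes the median log2 fold change was -0.09 in Y79 and -0.11 in WERI with TMM, -0.65 and -0.56 with total counts alone, and -1.80 and -2.01 with mitochondrial mRNAs as the scale. Of the genes called, 43.7% were higher in Y79 and 42.7% in WERI with TMM, 20.7% and 21.8% with total counts, and 2.27% and 0.826% with mitochondrial mRNAs. DUSP4, DUSP5, SPRED1 and SPRED2 lay below that median in both lines under all 3 scalings, and DUSP2 did in WERI. The Sprouty values depended on the scale: with total counts SPRY1 (-0.87, adjusted p = 0.0184) and SPRY2 (-0.60, adjusted p = 0.00978) were called lower in Y79, and with mitochondrial mRNAs all 3 were called lower in both lines, by -1.31 to -2.03. In WERI all 3 Sprouty genes lay above the median of all genes under each scaling.

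**Figure D4:**
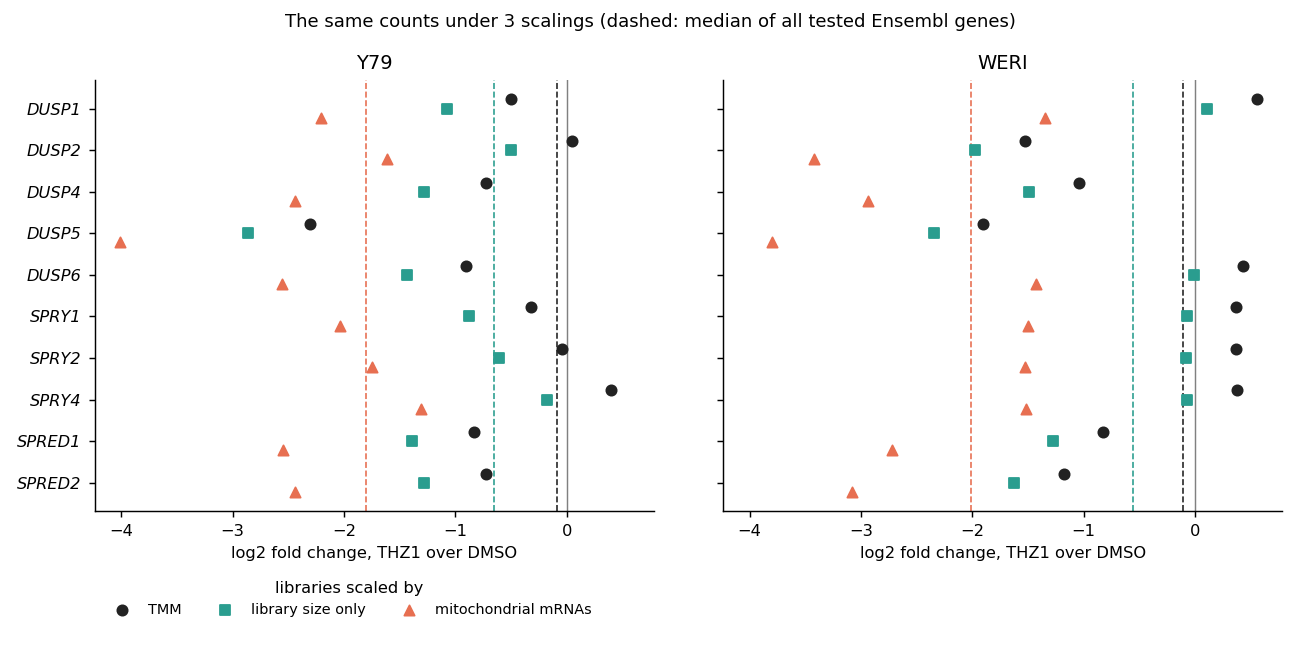
Log2 fold change of THZ1 over DMSO for each gene in Y79 and WERI with libraries scaled by TMM, by total counts, and by mitochondrial mRNAs; dashed lines are the medians of all tested Ensembl genes under the same scaling. The points move left together with the medians, and DUSP5 stays left of its median under each scaling.

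The other genes of the pathway were taken from 7 lists with 79 genes, of which 75 were tested. In Y79 21 rose and 31 fell, and in WERI 17 rose and 34 fell, and the median log2 fold change was -0.09 and -0.36. Over all tested Ensembl genes 29.9% rose and 38.5% fell in Y79, and 27.7% and 37.2% in WERI, so the totals stand near the background, against which the counts of each list are also to be read. Receptor tyrosine kinases had 4 higher and 3 lower of 15 in Y79, and 2 and 5 in WERI. Adaptors and exchange factors had 4 higher and 6 lower of 11 in each line, and the kinases and GTPases of the core cascade had 3 and 6 of 13 in Y79 and 2 and 8 in WERI. ERK effectors had 1 higher and 6 lower of 8 in each line. Other MAP kinase phosphatases had 1 higher and 2 lower of 5 in Y79 and 0 and 3 in WERI, and other negative regulators had 3 and 5 of 12 in Y79 and 3 and 4 in WERI. Other ERK output genes had 5 higher and 3 lower of 11 in Y79, and 5 and 2 in WERI. That last list was drawn up knowing that FOS and EGR1 rose in these libraries.

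The immediate early genes FOS, EGR1 and IER2, transcription regulators that ERK switches on, were the largest rises among listed genes with a mean log2 CPM of 3 or more and groups without overlap. Some less abundant genes rose and fell by more in Y79, and fell by more in WERI; they are not named here. FOS averaged 27.4 ± 0.835 CPM in Y79 THZ1 and 1.55 ± 0.563 CPM in Y79 DMSO (SD, n = 3), which is 4.13 ± 0.2 (SE) on the log2 scale (adjusted p = 7.06e-10). It averaged 76.6 ± 11.1 CPM in WERI THZ1 and 3.92 ± 0.273 CPM in WERI DMSO, which is 4.29 ± 0.188 (adjusted p = 6.68e-10). The changes of IER2 were 2.63 ± 0.0997 in Y79 and 2.85 ± 0.101 in WERI, and those of EGR1 2.34 ± 0.149 and 3.00 ± 0.137. DUSP4, DUSP5 and both SPRED genes fell in each line, while DUSP1 fell in Y79 and rose in WERI. FOS, EGR1 and IER2 were named because they rose most, so their contrast with the feedback genes was set by that choice. Of the same list of 11 output genes, 3 fell in Y79 and 2 in WERI. Above the same abundance limit, the deepest falls in Y79 were DUSP7, a cytoplasmic ERK phosphatase, at -2.23 ± 0.0948, the adaptor CRK at -2.20 ± 0.0729 and the GTPase NRAS at -1.45 ± 0.0825. In WERI they were DUSP16, a phosphatase of JNK and p38, at -1.75 ± 0.178, CRK at -1.58 ± 0.0704 and the ERK-activated kinase gene RPS6KA1 at -1.56 ± 0.11. DUSP7 averaged 10.8 ± 1.1 CPM in Y79 THZ1 and 50.5 ± 1.2 CPM in Y79 DMSO, a 4.68-fold fall beside 4.94-fold for DUSP5.

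**Figure D5:**
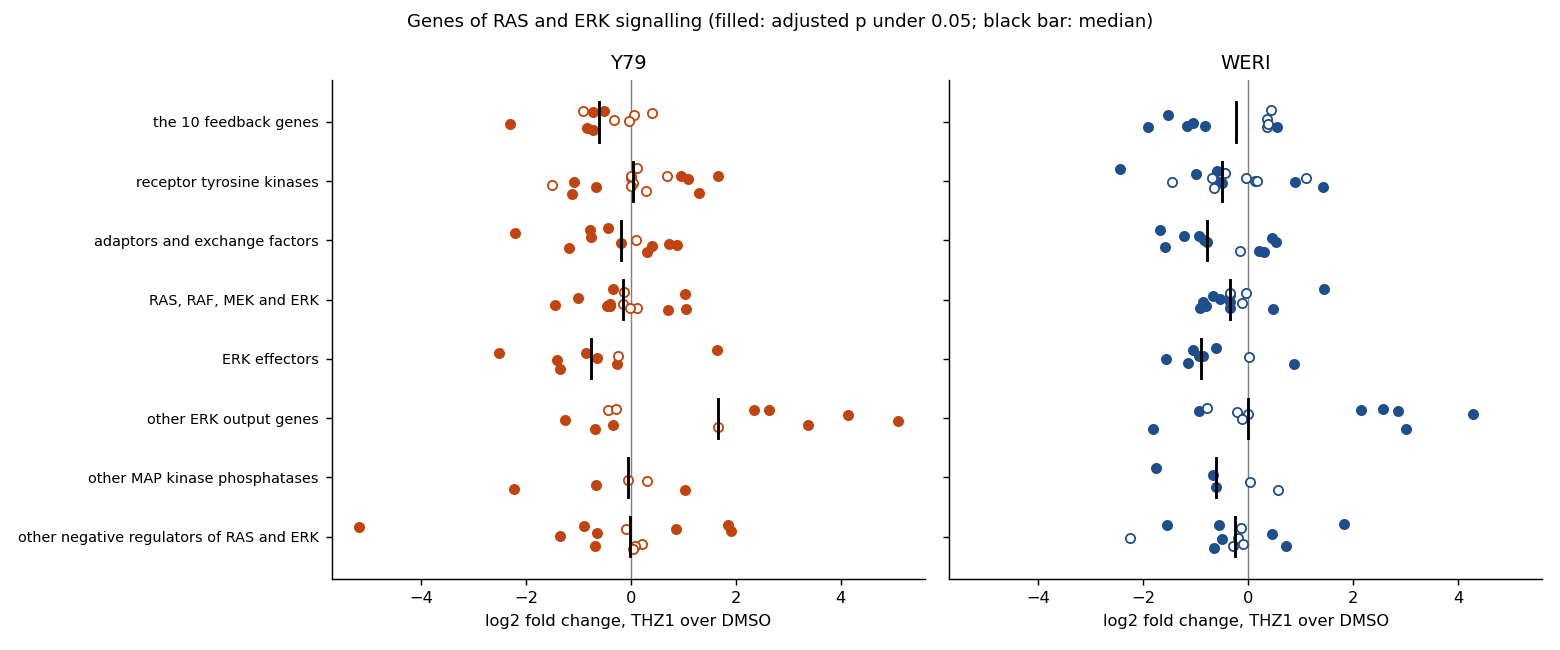
Log2 fold change of THZ1 over DMSO in Y79 and WERI for the 10 feedback genes and the tested genes of 7 lists of the pathway; filled points passed an adjusted p of 0.05 and the black bar is the median of the row. The list of other ERK output genes reaches farthest to the right in both lines, and its median is 1.65 in Y79 and 0.00 in WERI. Each of these medians is the value of a gene of low counts that was not called. In Y79 it is ETV4, with a mean of 0.202 CPM in THZ1 and 0.0659 CPM in DMSO. In WERI it is CCND1, with 0.231 CPM in THZ1 and 0.23 CPM in DMSO.

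In DMSO, 24 of the 75 other genes were higher and 25 lower in Y79 than in WERI, where 32.3% and 32.6% of all tested genes were so. The genes named next had a mean log2 CPM of 3 or more and groups without overlap; less abundant genes of the lists differed by more. In this class the largest excess in Y79 was PEBP1, which encodes an inhibitor of RAF, with 337 ± 6.64 CPM in Y79 and 45.4 ± 1.01 CPM in WERI (log2 2.89 ± 0.0906, adjusted p = 1.03e-11). The insulin receptor gene INSR and the receptor gene EPHA2 followed at 2.07 ± 0.104 and 1.93 ± 0.151. PHLDA1, an ERK-responsive gene, was lowest in Y79 relative to WERI in this class, with 5.78 ± 0.999 CPM in Y79 and 221 ± 4.08 CPM in WERI (log2 -5.25 ± 0.126, adjusted p = 9.12e-13). PEA15, whose product holds ERK in the cytoplasm, and DUSP16 were lower at -2.36 ± 0.0753 and -1.75 ± 0.176. PHLDA1 and PEA15 thus shared the direction of DUSP2, DUSP5, SPRY2 and SPRY4, and PEBP1, INSR and EPHA2 that of DUSP4, SPRED2 and SPRY1. Of the 11 other ERK output genes, 4 were higher and 5 lower in Y79.

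The pattern over the 12 libraries of the 9 genes with a mean log2 CPM of 1 or more, all but DUSP6, was matched to all 14864 other tested Ensembl genes by the root mean square difference of centred log2 CPM. The genes most like DUSP4 were DHX37 (0.176), KPNA3 (0.18) and XYLT1 (0.183). XYLT1 (0.106), FHOD3 (0.136) and DHX37 (0.137) were nearest to SPRED2, and DUSP4 and SPRED2 were the closest pair of the 10 (0.187). Both were high in Y79 DMSO, low in WERI THZ1 and in between in the other 2 groups. Nearest to DUSP5 were ZNF274 (0.141), SAP30L (0.162) and CENPL (0.165). DUSP2 had no close match, with NRN1 at 0.526, and it rests on 0 to 14 counts per library in Y79. SPRY2 had the closest, RAD23B at 0.0753. The measure is not scaled to how much a gene varies, so these values do not rank how distinct the patterns are.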

How the data were processed

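The counts are those the authors deposited: whole numbers per gene for 12 libraries of total RNA, raw as far as the values show. Per the submitters' processing notes, Cufflinks and GRCh38 were used; the aligner and the counting method are not stated there or in the labels. Per the labels' protocols, the NEBNext Ultra kit was used, which does not mark strand. Positions come from GENCODE v29.

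From these counts, edgeR 4.0.16 in R 4.3.3 was run on all 12 libraries with 1 mean per group (filterByExpr, TMM factors, robust glmQLFit and glmQLFTest). It tested 18844 features, 14865 of them Ensembl genes, two-sided, with Benjamini-Hochberg adjustment over all of them. The SE of a log2 fold change is its size over the root of its F statistic. The fits were tested on simulated counts, in which few genes changed, as many up as down, in Y79 THZ1 only. Such counts do not test the scaling where most genes shift. DESeq2 1.42.0, other scalings, filters, a replicate block and each library left out were alternatives. Figures used Python 3.11.15 with pandas 2.3.3, numpy 2.4.6 and matplotlib 3.10.9.

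All 10 genes are named in every comparison. Of the 7 pathway lists, the 3 largest rises and falls among called genes are named, given a mean log2 CPM of 3 or more and groups without overlap. Likeness was computed for genes of the 10 whose mean log2 CPM was 1 or more, against all tested Ensembl genes, with a prior count of 2. The genes nearest to DUSP1 are not reported here. The 10 genes and the lists were chosen with earlier results of these data known. The floor of 3 counts covers counting error only, while SE and p-values include the spread between samples.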

Additional observations from a re-analysis of the deposited data

Results flagged for a closer look

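The change of DUSP1 after THZ1 differed between the lines, at -1.06 ± 0.225 (SE) for Y79 minus WERI on the log2 scale (edgeR adjusted p = 0.00537). It was 7.78 ± 1.22 CPM in Y79 THZ1 and 11 ± 2.08 CPM in Y79 DMSO, and 14.0 ± 0.644 CPM in WERI THZ1 and 9.51 ± 1.22 CPM in WERI DMSO (SD, n = 3). The test of the difference itself singled it out, and of the 10 genes no other met that test in the main edgeR fit. Over all tested Ensembl genes 13.2% were called negative and 8.74% positive, so 1 negative call is near the background. DESeq2 also called DUSP2 (1.58, adjusted p = 0.0138) and DUSP5 (-0.38, adjusted p = 0.0332). Scaling by total counts also called DUSP5, and scaling by mitochondrial mRNAs also called SPRED2.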

How the results depend on the processing

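Left out one at a time, no library ended a fall of DUSP4, DUSP5, SPRED1 or SPRED2 in either line or of DUSP2 in WERI, and none of the other fits did. Some changes that were not called varied in sign. Leaving out a library gave DUSP2 in Y79 values from -0.67 to 0.70, SPRY2 in Y79 from -0.10 to 0.01, DUSP6 in WERI from -0.21 to 0.79, and 1 to 2 genes called higher in WERI. For the difference between the lines it gave SPRED1 from -0.19 to 0.23, SPRY4 from -0.17 to 0.19, 0 to 1 genes of the 10 called positive and 1 to 2 negative, and 889 to 2161 positive and 1437 to 3029 negative Ensembl genes. It gave SPRED1 from -0.14 to 0.003 for Y79 against WERI in DMSO, and SPRY1 from -0.19 to 0.27 and SPRED1 from -0.27 to 0.15 in THZ1. With 1 library left out, the remaining 2 of that group are assumed to vary like the other groups.

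Scaling by total counts gave 2175 Ensembl genes higher in Y79 and 2221 in WERI, with 0 of the 10 higher in WERI. DUSP2 was then -0.50 and SPRY4 -0.17 in Y79, and DUSP6 -0.009, SPRY1 -0.074, SPRY2 -0.082 and SPRY4 -0.069 in WERI. The difference between the lines had 2 of the 10 negative (DUSP5 at -0.51 beside DUSP1), 740 Ensembl genes positive and SPRY4 at -0.10. Scaling by mitochondrial mRNAs gave 283 higher and 12188 lower in Y79, 111 and 13328 in WERI, all 10 genes lower in Y79, and 9 lower and 0 higher in WERI. DUSP2 was -1.62 and SPRY4 -1.31 in Y79, and DUSP1 -1.35, DUSP6 -1.43, SPRY1 -1.50, SPRY2 -1.53 and SPRY4 -1.52 in WERI. The difference had 1 of the 10 positive (SPRED2, 0.64), 713 Ensembl genes negative and SPRED1 at 0.17, and the lines in DMSO had 2706 higher in Y79 and DUSP1 at -0.076. The medians of all genes under these scalings stand in the results; the cause was not tested.

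With RLE factors 2 genes of the 10 were higher in WERI, SPRY2 was 0.065 in Y79, the SPRED1 difference 0.006 and SPRY1 0.015 in THZ1. DESeq2 called 3 higher in WERI and 1 positive and 2 negative differences (DUSP2 1.58, DUSP5 -0.38 and DUSP1), with SPRY2 at 0.061 in Y79, the SPRED1 difference at 0.008 and SPRY1 at 0.015 between the lines in THZ1. With Ensembl genes only, 1 was higher in Y79 (SPRY4, 0.51) and 3 in WERI, with these 3 values at 0.073, 0.017 and 0.024. Fitted within 1 line, 2 were higher in WERI. SPRY1 in DMSO was not called without a filter (0.68), with total counts (0.52) or with mitochondrial mRNAs (0.42). DUSP6 in DMSO was called with RLE factors (-1.71), total counts (-1.87), mitochondrial mRNAs (-2.02), DESeq2 (-1.72) and Ensembl genes only (-1.71).

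Same-numbered libraries did not deviate together (r from -0.21 to 0.03), so the numbers give no pairing. Between differently numbered libraries r ran from -0.2 to 0.34, highest for WERI THZ1 replicate 1 with WERI DMSO replicate 3. A pairing in another order was not tested. A replicate block changed the positive differences to 864 Ensembl genes, the SPRED1 difference to 0.012 and SPRY1 in THZ1 to 0.021. Under the replicate block DUSP6 in DMSO was -2.02 and called, and SPRY1 in DMSO 0.69 and not called. Depth limits DUSP2 and DUSP6 in Y79, which rest on 0 to 16 counts per library.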
